A study of Mus musculus with 3 samples.

Results

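Genes of the interferon response and of antigen presentation on MHC class I molecules were followed across mouse gastric organoids. The set was chosen by gene symbol: of 38 names, 37 were found as rows among the 56691 genes of the deposited table, and the remaining name, Rigi, is a newer symbol of Ddx58, which is in the table. RNA was sequenced from 3 organoid cultures of the gastric corpus, with 1 library in each group, all grown in Matrigel in a proliferation medium. By its label, the library Gpx4 KO-Mist1+ came from Gpx4F/F;Mist1Cre/ERT2;RFPLSL mice, in which Gpx4 is floxed and a tamoxifen-activated Cre recombinase is made from the Mist1 locus, together with a red fluorescent reporter behind a stop cassette. The Mist1+ and Mist1- libraries came from Mist1Cre/ERT2;RFPLSL mice and have the genotype label WT, so the Cre and reporter alleles are shared by all 3 groups; whether and when Cre was activated is not given in the sources used here. The mice were about 8 weeks old. Since each group is a single library, no difference could be checked against replicates and no p-value was computed. Every interval given here is a 95% interval that covers counting error only.

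The libraries held 16396693 counts for Gpx4 KO-Mist1+, 16187378 for Mist1+ and 14943918 for Mist1-. Gpx4 had 2569, 1998 and 4399 counts in the same order, so the library labelled as its knockout was not the lowest, and since a count over the whole gene takes in exons that a deletion leaves, this checks nothing about the deleted part. Bhlha15, the gene of Mist1, had 370 counts in Gpx4 KO-Mist1+, 580 in Mist1+ and 282 in Mist1-, so Mist1- was not without it, and Gpx4 KO-Mist1+ was 1.20-fold (1.02 to 1.40) above Mist1- and 1.59-fold (1.39 to 1.81) below Mist1+. Of 12 epithelial markers 11 passed an FPKM of 1, with Epcam at 397, 351 and 427 FPKM (fragments per kilobase of exon, scaled to the column total). The 12 markers summed to 5529, 6460 and 6498 FPKM. Markers of other cell types were near 0: Cd3e and Itgam had no count in any library, the leukocyte antigen gene Ptprc had 0, 1 and 1 counts, 6 fibroblast markers summed to at most 0.12 FPKM and 4 endothelial markers to at most 0.17. Of 9 haematopoietic markers 1 passed an FPKM of 1, Cd68, a gene for a lysosomal membrane protein, at 24.4 FPKM in Gpx4 KO-Mist1+, 5.06 in Mist1+ and 4.37 in Mist1-; the 9 markers summed to 24.5, 5.46 and 4.89 FPKM, and what part this has in the results was not tested. Parietal cells were hardly represented, with Atp4b at 0 counts throughout and Atp4a between 1.03 and 1.69 FPKM.

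Type I interferons bind a receptor made of the Ifnar1 and Ifnar2 chains, and interferon gamma binds one made of Ifngr1 and Ifngr2. Type I signalling ends in a complex that holds Stat2 and Irf9 and binds the interferon-stimulated response element, whereas interferon gamma acts mainly through the gamma-activated site. The induced genes include sensors of viral RNA, enzymes and binding proteins that block viral replication, and the genes that load peptides onto class I molecules, which nearly all nucleated cells display to CD8 T cells.

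Promoter sequence was available for 29 of the 37 genes from RefSeq (GRCm38.p6), as windows from 250 bases before to 50 bases after a transcription start. The core of the response element (GAAA, any 2 bases, GAAA) was searched on both strands and was present at 12 of these 29 genes (41.4%), beside 3.99% of all 27025 genes with a window. The gamma-activated site, TTCNNNGAA, was present at 9 (31.0%), beside 9.55% of all genes; matches of the 2 motifs may overlap, as they do at Bst2. More than 1 response element core was found at Isg15, Ifit1, Ifit3, Oas1a and Bst2. The share of all genes with more than 1 was not computed, so this number has no background beside it. The 160 bases before the start are shown for the members with a whole match of either motif inside them. They were thus chosen for a match and not for their levels. Matched bases are in capitals, as response element cores in all but the last, where the capitals are a gamma-activated site. Oas1a and Bst2 hold both kinds.
B2m: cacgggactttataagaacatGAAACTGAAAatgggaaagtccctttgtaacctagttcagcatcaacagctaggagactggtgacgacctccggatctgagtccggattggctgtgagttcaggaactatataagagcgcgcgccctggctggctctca
Isg15: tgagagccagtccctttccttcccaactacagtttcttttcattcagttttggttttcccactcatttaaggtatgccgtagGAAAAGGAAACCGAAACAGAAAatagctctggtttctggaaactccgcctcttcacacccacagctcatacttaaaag
Ifit1: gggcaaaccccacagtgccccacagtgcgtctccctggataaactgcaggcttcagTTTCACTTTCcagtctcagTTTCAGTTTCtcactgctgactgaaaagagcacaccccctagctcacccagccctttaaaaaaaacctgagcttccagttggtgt
Ifit3: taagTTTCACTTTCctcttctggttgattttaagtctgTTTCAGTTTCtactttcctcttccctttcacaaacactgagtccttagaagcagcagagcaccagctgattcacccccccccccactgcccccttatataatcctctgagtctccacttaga
Rsad2: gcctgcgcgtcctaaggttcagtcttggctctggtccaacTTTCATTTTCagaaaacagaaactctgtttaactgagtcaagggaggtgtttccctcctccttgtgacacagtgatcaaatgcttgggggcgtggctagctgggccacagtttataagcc
Oas1a: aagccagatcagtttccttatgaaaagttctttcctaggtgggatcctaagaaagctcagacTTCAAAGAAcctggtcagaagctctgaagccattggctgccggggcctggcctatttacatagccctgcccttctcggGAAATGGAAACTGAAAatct
Bst2: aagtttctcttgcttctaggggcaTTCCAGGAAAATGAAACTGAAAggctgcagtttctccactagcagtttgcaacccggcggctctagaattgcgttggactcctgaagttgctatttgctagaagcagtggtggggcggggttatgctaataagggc
Irf1: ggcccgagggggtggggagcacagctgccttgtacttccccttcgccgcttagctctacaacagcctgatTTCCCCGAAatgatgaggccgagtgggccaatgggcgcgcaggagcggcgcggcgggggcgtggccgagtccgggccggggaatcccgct
These stretches lie at chr2:122147527-122147686 (plus strand) for B2m, chr4:156200819-156200978 (minus) for Isg15, chr19:34640729-34640888 (plus) for Ifit1, chr19:34583369-34583528 (plus) for Ifit3 and chr12:26456453-26456612 (minus) for Rsad2. Those of Oas1a, Bst2 and Irf1 lie at chr5:120907526-120907685 (minus), chr8:71537473-71537632 (minus) and chr11:53769854-53770013 (plus). A match describes these letters and does not show that a factor binds there.

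The levels of the 37 genes covered a wide range, with the class I chains at the top, receptors, sensors and several effectors in the middle, and many classical interferon-induced genes near the limit of detection. In FPKM, 23 genes reached 1 in all 3 libraries, 1 gene in 2 libraries, 3 genes in 1 library and 10 genes in none. The genes that reached 1 in a single library were Irf7 in Gpx4 KO-Mist1+ and Ifit2 and Oasl2 in Mist1+; such genes entered the comparisons through the library where they were high. In bulk RNA, fewer cells of a type and less RNA per cell cannot be told apart.

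**Figure D1:**
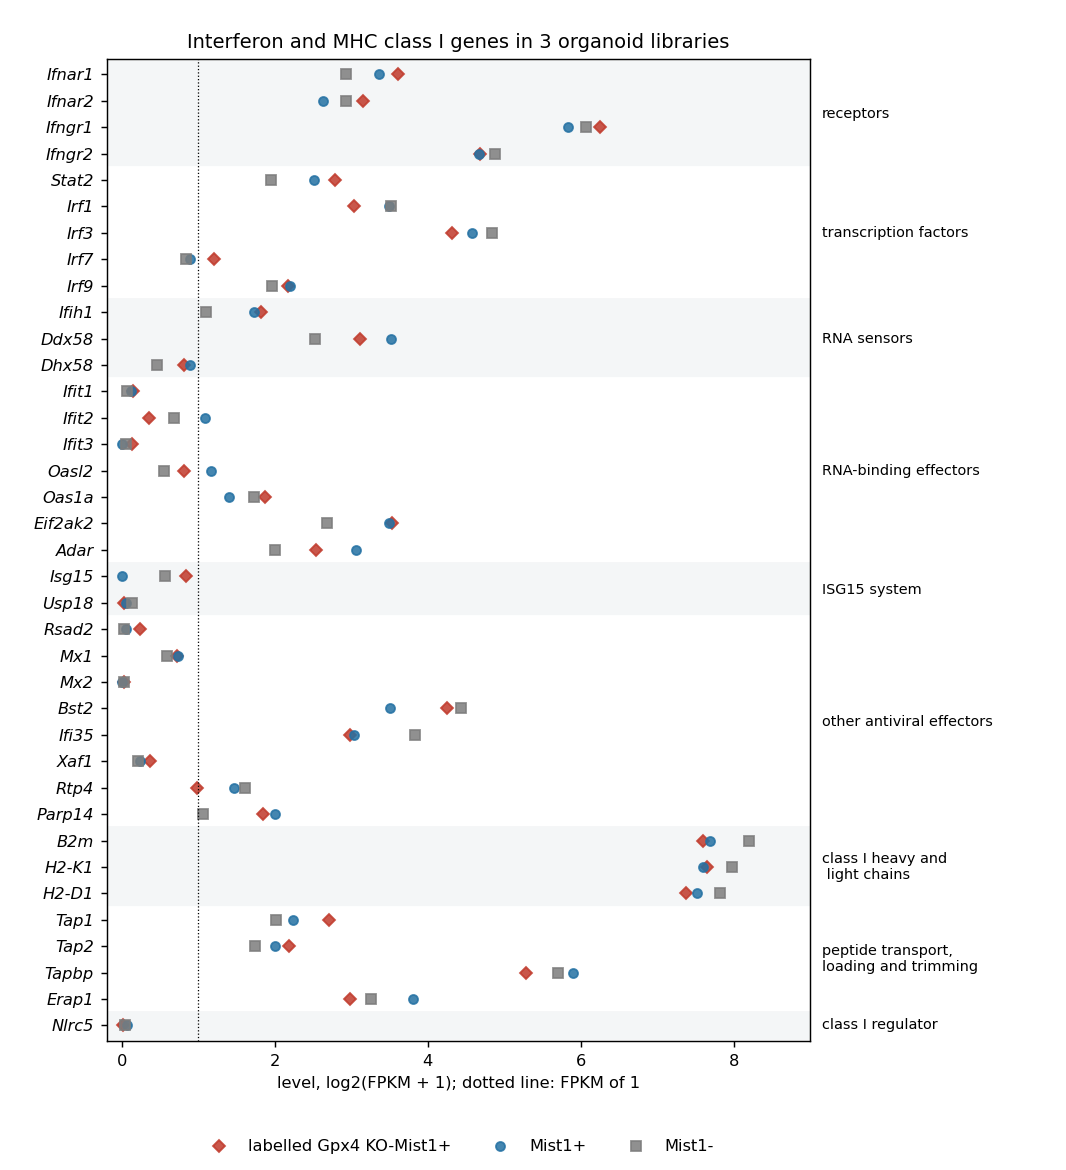
Level of each of 37 genes, as log2 of FPKM plus 1, in the library labelled Gpx4 KO-Mist1+ (diamonds), Mist1+ (circles) and Mist1- (squares), 1 library each, grouped by role. B2m, H2-K1 and H2-D1 lie above 7 on this scale in every library, and 10 genes lie left of the dotted line, an FPKM of 1, in every library.

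The receptor chains were all present. Ifngr1, the ligand-binding chain for interferon gamma, stood at 75.4 FPKM in Gpx4 KO-Mist1+, 56.0 in Mist1+ and 66.0 in Mist1-. Ifngr2, its signalling partner, stood at 24.7, 24.4 and 28.5 FPKM in the same libraries, so the first 2 of these lay within counting error of each other (fold 1.01, 0.940 to 1.09). The type I chains were lower than the gamma chains per length: Ifnar1 had 11.2 FPKM in Gpx4 KO-Mist1+, 9.32 in Mist1+ and 6.60 in Mist1-, and Ifnar2 had 7.86, 5.18 and 6.61. Of 4 chains, 3 were highest in Gpx4 KO-Mist1+, and Ifngr2 was highest in Mist1-. Gpx4 KO-Mist1+ was the highest library for 30.6% of all genes that reached an FPKM of 1 in some library.

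Among the transcription factors, Irf3, which is activated by viral sensors without new synthesis, was the most abundant, at 19.0 FPKM in Gpx4 KO-Mist1+, 22.9 in Mist1+ and 27.6 in Mist1-. Irf1, a factor induced by interferon gamma whose promoter is shown above, had 7.18, 10.3 and 10.4 FPKM in the same order, and Mist1+ and Mist1- lay within counting error (1.01-fold lower in Mist1+, 0.906 to 1.13). Stat2 ran the other way, with 576 counts in Gpx4 KO-Mist1+, 454 in Mist1+ and 254 in Mist1-, or 5.93, 4.73 and 2.87 FPKM. Its partner Irf9 had 3.49, 3.60 and 2.91 FPKM, and Irf7, the factor that amplifies interferon production, was low at 1.31, 0.85 and 0.78 FPKM.

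The cytosolic RNA sensors were measurable. Ddx58, which encodes RIG-I, had 886 counts in Gpx4 KO-Mist1+, 1195 in Mist1+ and 500 in Mist1-, or 7.66, 10.5 and 4.75 FPKM. Ifih1, which encodes MDA5, had 2.52, 2.32 and 1.14 FPKM, and the regulatory relative Dhx58 stayed under 1 at 0.75, 0.85 and 0.37. All 3 sensors were lowest in Mist1-, as were 45.8% of all genes that reached an FPKM of 1 in some library. Levels in Mist1- also went with transcript length, as described below.

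Effectors that act on RNA divided into abundant and scarce genes. Eif2ak2, which encodes the kinase PKR that halts translation on double-stranded RNA, stood at 10.5 FPKM in Gpx4 KO-Mist1+, 10.2 in Mist1+ and 5.39 in Mist1-. Adar, the adenosine deaminase that edits double-stranded RNA (chromosome 3, 89715022 to 89753446, plus strand, GRCm38), had 640, 968 and 366 counts, or 4.81, 7.37 and 3.02 FPKM. The first 2 libraries were level for Eif2ak2, with a fold of 1.03 (0.938 to 1.14), while for Adar Mist1+ lay above the other libraries beyond counting error. Oas1a, an oligoadenylate synthetase, had 2.65, 1.64 and 2.31 FPKM, and the related Oasl2 had 0.76, 1.24 and 0.46. Ifit2, which binds viral RNA, had 18 counts in Gpx4 KO-Mist1+, 71 in Mist1+ and 35 in Mist1-, or 0.28, 1.12 and 0.60 FPKM. Its relatives Ifit1 and Ifit3, each with 2 response element cores before the start, had at most 5 and 3 counts in any library.

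Of the ubiquitin-like modifier system, the genes in the set, Isg15 and Usp18, were close to silent. Genes of that system outside the set were higher. Uba7 stood at 3.75 FPKM in Gpx4 KO-Mist1+, 3.82 in Mist1+ and 2.36 in Mist1-, and Ube2l6 at 1.77, 2.97 and 2.25. Isg15, the modifier itself, had 9 counts in Gpx4 KO-Mist1+, 0 in Mist1+ and 5 in Mist1-; its promoter stretch above holds 3 overlapping response element cores. The exact interval of the count of 0 in Mist1+ reaches up to 3.69 counts, an FPKM of 0.324. Usp18, which removes the modifier and restrains receptor signalling, had 1, 2 and 4 counts. Rsad2, which encodes viperin, had 13 counts in Gpx4 KO-Mist1+, 3 in Mist1+ and 1 in Mist1-. The antiviral GTPase gene Mx2 had at most 1 count and Mx1 had 36, 36 and 25, and Xaf1, a pro-apoptotic interferon-induced gene, had 22, 14 and 11.

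Other antiviral effectors were not all low. Bst2, which encodes tetherin, the membrane protein that holds budding virions, stood at 18.0 FPKM in Gpx4 KO-Mist1+ (266 counts), 10.3 in Mist1+ (151 counts) and 20.6 in Mist1- (278 counts). Ifi35 had 6.92, 7.19 and 13.3 FPKM, so here Mist1- stood apart as the highest and the other libraries lay within counting error (1.04-fold lower in Gpx4 KO-Mist1+ than in Mist1+, 0.849 to 1.27). Parp14, an ADP-ribosyltransferase, had 2.60, 3.01 and 1.08 FPKM and Rtp4, a chaperone-like gene induced by interferon, had 0.97, 1.77 and 2.04.

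The class I chains were among the most abundant transcripts. B2m, the invariant light chain (chromosome 2, 122147686 to 122153083, plus strand), had 192 FPKM (185 to 199) in Gpx4 KO-Mist1+, 206 (199 to 214) in Mist1+ and 292 (283 to 301) in Mist1-, which put it at ranks 186, 154 and 192 of all genes. H2-K1 (chromosome 17, 33996017 to 34000347, minus strand) had 199, 193 and 251 FPKM, and H2-D1 (chromosome 17, 35262730 to 35267499, plus strand) had 165, 183 and 226. All 3 chains were highest in Mist1-, as were 32.5% of all genes that reached an FPKM of 1 in some library. Their ratios with the trend on transcript length removed are given below. Of the stretches of 100 bases in their GENCODE M21 transcripts, 0.957% in H2-K1 and 3.59% in H2-D1 also occur in transcripts of other genes, so a small part of their reads could be split with other class I genes.

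Loading factors ran below the chains. Tapbp, or tapasin, which holds empty class I molecules at the peptide transporter, had 37.8 FPKM in Gpx4 KO-Mist1+, 58.5 in Mist1+ and 51.3 in Mist1-. Erap1, the aminopeptidase that trims peptides to length, had 828 counts in Gpx4 KO-Mist1+, 1534 in Mist1+ and 930 in Mist1-, or 6.94, 13 and 8.55 FPKM. The transporter subunits Tap1, at 5.51, 3.71 and 3.03 FPKM, and Tap2, at 3.56, 2.99 and 2.34, were highest in Gpx4 KO-Mist1+. Tapbp and Erap1 were lowest in that library. Nlrc5, the transactivator of class I genes, had 1, 7 and 4 counts, an FPKM of at most 0.05.

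Gpx4 KO-Mist1+ was set against Mist1+ to see how the labelled loss of Gpx4 goes with these genes in Mist1+ organoids. On log2 of FPKM plus 1, 0 of the 27 genes that reached an FPKM of 1 in some library were at least 2-fold apart. Of the 13351 genes over this filter, 7.55% were, so few calls would be usual for a set of this size. By scaled counts without the added 1, only Ifit2 passed 2-fold among the 27, at 4.0-fold lower (2.36 to 7.12). Over all genes, 6.55% were at least 2-fold lower and 8.09% higher. Ifit2 passed the filter only through Mist1+, the library of this pair where it was high. At a limit of 1.5-fold, 1 gene was higher and 3 were lower, beside 10.6% and 11.3% of all genes. The median log2 ratio of the 27 was -0.03, beside -0.09 over all genes.

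The gene that was higher at 1.5-fold was Bst2, at 1.74-fold (1.42 to 2.14). The 3 lower genes were Ifit2, Tapbp at 1.55-fold (1.47 to 1.63) and Erap1 at 1.88-fold (1.72 to 2.04). Adar was 1.53-fold lower (1.39 to 1.70) by counts, Irf1 1.43-fold (1.27 to 1.62), Ddx58 1.37-fold (1.25 to 1.49) and Irf3 1.21-fold (1.11 to 1.31). In the other direction, Ifnar2 was 1.52-fold higher (1.30 to 1.77), Tap1 1.49-fold (1.29 to 1.71), Ifngr1 1.35-fold (1.28 to 1.42), Stat2 1.25-fold (1.11 to 1.42) and Ifnar1 1.20-fold (1.10 to 1.31). The class I chains differed by at most 1.11-fold, with H2-K1 1.04-fold higher (1.01 to 1.07), B2m 1.07-fold lower (1.02 to 1.13) and H2-D1 1.11-fold lower (1.07 to 1.15). Isg15 had 9 counts against 0, with an exact interval of the fold that starts at 1.95-fold higher, and Rsad2 was 4.28-fold higher (1.18 to 23.4) on 13 against 3 counts. Neither reached an FPKM of 1, so neither is among the 27. Among low genes that are, Oas1a was 1.62-fold higher (1.13 to 2.35), and Irf7 1.54-fold (1.07 to 2.22), while Oasl2 was 1.64-fold lower (1.23 to 2.2) and Rtp4 1.82-fold (1.18 to 2.85). Oas1a shares 40.9% of its 100-base stretches with Oas1g and Ifit3 31.7% with Ifit3b, so their counts are uncertain. Opposite-strand genes cover 24.9% of the exonic bases of Tapbp, 18.5% of Tap2, 16.8% of Adar and of Ifi35, and 11.5% of Erap1. Strand use in counting is not given in the sources used here. Same-strand genes cover 13.9% of the exonic bases of Rtp4 and 9.46% of Ifnar2, so these counts are uncertain too.

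**Figure D2:**
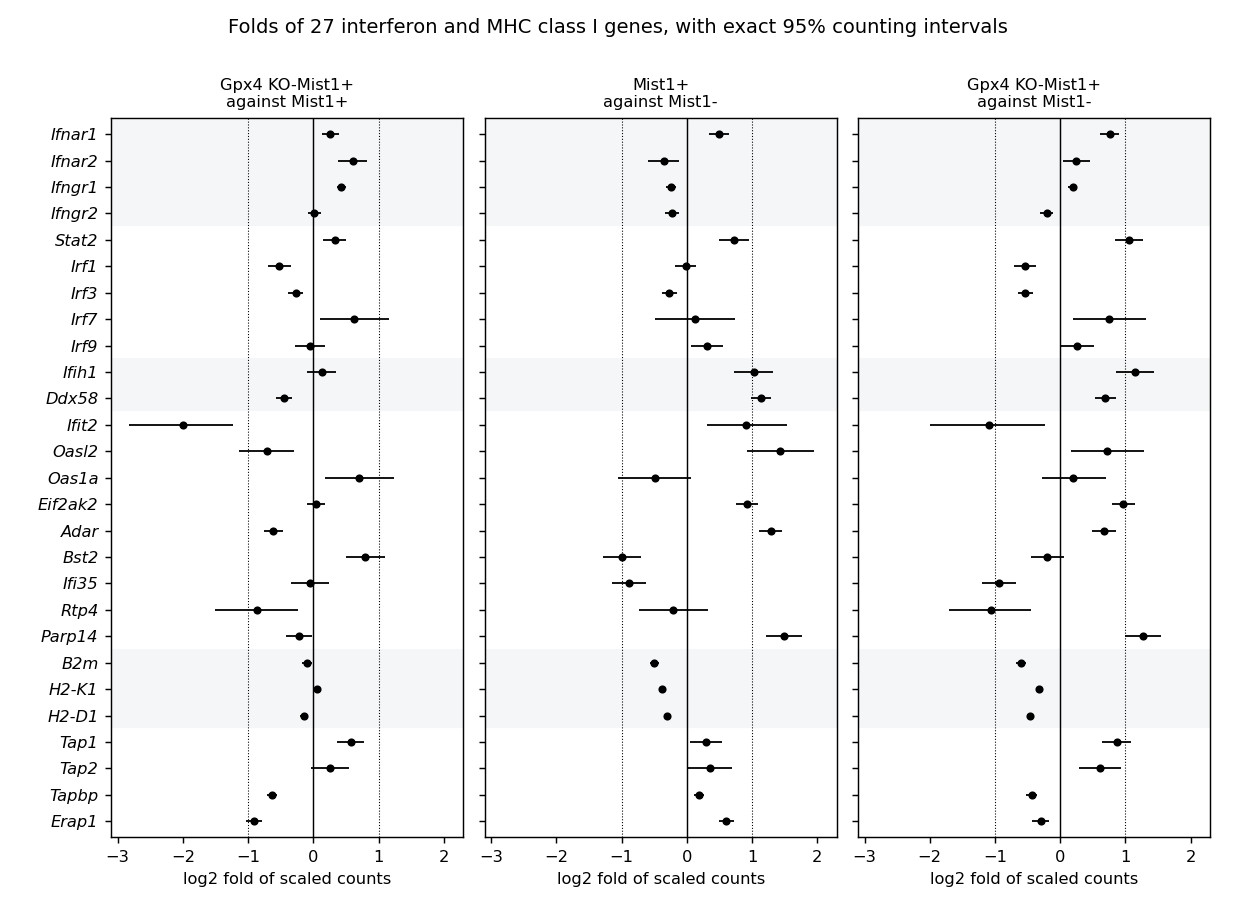
Log2 fold of counts scaled to column totals for the 27 genes that reached an FPKM of 1 in some library, in 3 comparisons of single libraries; bars are exact 95% intervals for counting error, dotted lines mark 2-fold and shading separates roles. Ifit2 lies beyond 2-fold lower in the left panel, and Adar, Parp14, Ddx58, Oasl2 and Ifih1 lie beyond 2-fold higher in the middle panel.

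Mist1+ was then set against Mist1-, the 2 kinds of wild-type organoid. By scaled counts, the RNA sensors Ddx58 and Ifih1 and the effectors Parp14, Oasl2 and Adar were at least 2-fold higher in Mist1+, a share of the set near that of all genes. On log2 of FPKM plus 1, 1 of 27 genes was at least 2-fold apart, Adar, with a log2 ratio of 1.06, beside 13.6% of all genes in either direction, 7.88% higher and 5.73% lower. Ddx58 lay just short of the limit at 0.996, and Ifih1 was at 0.63. By scaled counts, 5 of 27 (18.5%) were at least 2-fold higher, beside 15.8% of all genes, and 0 were at least 2-fold lower, beside 8.85%. Of these 5, Oasl2 passed the filter only through Mist1+, the library where it was higher. At 1.5-fold, 8 of 27 were apart (38.7% of all genes), 6 of them higher (23.7%) and 2 lower (15%). The median log2 ratio of the 27 was 0.18, beside 0.15 over all genes. This comparison shares the Mist1+ library with the one above. Markers of gastric epithelial lineages also differed between the libraries: the pit cell genes Tff1 and Gkn2 stood at 90.6 and 5.02 FPKM in Mist1+, against 657 and 33.5 in Mist1-, and the neck cell mucin gene Muc6 at 19.96 in Mist1+, against 5.71 in Mist1-. In Gpx4 KO-Mist1+ these genes stood at 87.7, 1.16 and 20.6 FPKM. The chief cell gene Cblif stood at 823 FPKM in Mist1+, against 403 in Mist1- and 502 in Gpx4 KO-Mist1+. The part of these markers in the results was not tested.

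The 5 genes at least 2-fold higher by counts were Parp14 at 2.79-fold (2.32 to 3.38), Oasl2 at 2.69-fold (1.89 to 3.87), Adar at 2.44-fold (2.16 to 2.76), Ddx58 at 2.21-fold (1.99 to 2.45) and Ifih1 at 2.03-fold (1.66 to 2.50). These folds depend on scaling to column totals. With median ratio scaling Ddx58 was 1.88-fold and Ifih1 1.74-fold higher, while Parp14, Oasl2 and Adar stayed past 2-fold. Eif2ak2 was 1.89-fold higher (1.68 to 2.14), Ifit2 1.87-fold (1.23 to 2.89), Stat2 1.65-fold (1.41 to 1.93), Erap1 1.52-fold (1.40 to 1.65) and Ifnar1 1.41-fold (1.27 to 1.57). Oas1a, also an RNA-directed effector, was 1.41-fold lower on 50 against 65 counts, with an interval that includes no difference (0.959 to 2.08). Bst2 was 1.99-fold lower (1.63 to 2.45) and Ifi35 1.85-fold lower (1.55 to 2.21). B2m was 1.41-fold lower (1.35 to 1.49), H2-K1 1.30-fold (1.27 to 1.34) and H2-D1 1.24-fold (1.20 to 1.28), although H2-D1 turned to the other side of 0 when FPKM were rescaled to a common sum (TPM). Tap1 and Tap2 were 1.22-fold (1.04 to 1.45) and 1.28-fold (1.02 to 1.61) higher, and for Tap1 the sign turned once the length trend described next was taken out. With median ratio scaling Tap1 was 1.05-fold (0.884 to 1.24) and Tap2 1.09-fold (0.869 to 1.38) higher, so both intervals then included no difference. Isg15 had 0 counts against 5, and the exact interval of its fold reached up to 1.01, or 0.86 with median ratio scaling. At this depth, whether a difference was detectable depended on the scaling.

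In this comparison the log2 ratios of interferon and class I genes went closely with the length of their transcripts. Across the 27 genes the log2 ratio had a Spearman correlation of 0.93 with exonic length, and across all 13351 genes it was 0.49; these values describe genes of the same 2 libraries, and genes are not independent. The 2 genes in the shortest of 5 equal length groups of all genes, B2m and Bst2 with 860 and 903 exonic bases, had a median log2 ratio of -0.71, beside -0.36 for all genes in that group. The 5 genes in the longest group, Ifih1, Ddx58, Parp14, Adar and Erap1, had a median of 0.95, beside 0.63 for all genes in it. Length groups in between followed the same order, with medians of -0.32, 0.02 and 0.50 for the interferon and class I genes. With the trend of all genes on length removed, no gene of the 27 was at least 2-fold apart and their log2 ratios lay between -0.48 and 0.53: Adar and Ddx58 were both at 0.53, Eif2ak2 at 0.53, Parp14 at 0.36, Ifih1 at 0.10, Ifi35 at -0.42 and Bst2 at -0.48. B2m was then at -0.06, H2-D1 at -0.14 and H2-K1 at -0.30. For the labelled knockout against Mist1+, the same correlation was -0.28 across the 27 genes and -0.02 across all genes.

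**Figure D3:**
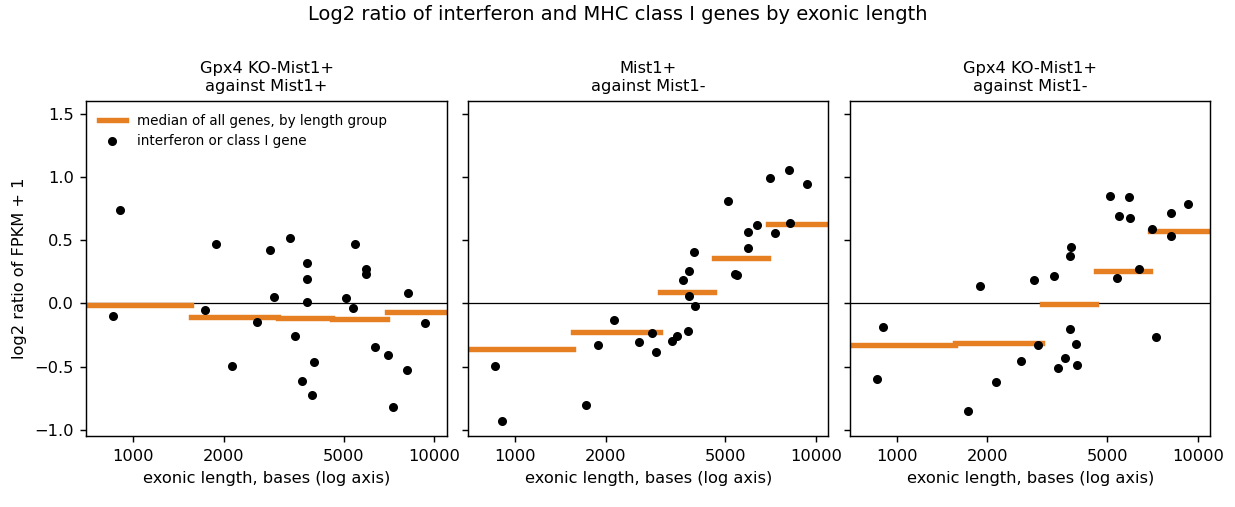
Log2 ratio of FPKM plus 1 against exonic length on a log axis, for the 27 interferon and class I genes (points) in 3 comparisons of single libraries; orange bars are medians of all genes in each of 5 length groups. In the middle panel the points run upward with length, from B2m and Bst2 at the short end to Adar and Parp14 at the long end, and the left panel shows no such order.

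Gpx4 KO-Mist1+ against Mist1- shares a library with each of the other comparisons, so its values are given only side by side with theirs. On log2 of FPKM plus 1, 0 of 27 genes were at least 2-fold apart, beside 20.2% of all genes in either direction, 11.6% higher and 8.56% lower. At 1.5-fold, 10 of 27 were apart, 7 higher (25.6% of all genes) and 3 lower (20.1%). By scaled counts 3 were at least 2-fold higher, beside 19.3% of all genes, and 2 at least 2-fold lower, beside 12.6%. Those higher were Parp14 at 2.41-fold (1.99 to 2.92), Ifih1 at 2.22-fold (1.81 to 2.72) and Stat2 at 2.07-fold (1.78 to 2.41). Those lower were Ifit2 at 2.13-fold (1.18 to 4.0) and Rtp4 at 2.1-fold (1.36 to 3.28). Ifit2 stayed under an FPKM of 1 in both libraries of this pair and passed the filter only through Mist1+. With median ratio scaling Stat2 was 1.88-fold higher, while Parp14, Ifih1, Ifit2 and Rtp4 stayed past 2-fold. Eif2ak2 was 1.95-fold (1.74 to 2.2), Tap1 1.82-fold (1.56 to 2.13) and Ifnar1 1.69-fold (1.53 to 1.87) higher. Ifi35 was 1.92-fold (1.61 to 2.3), B2m 1.52-fold (1.45 to 1.6), H2-D1 1.37-fold (1.33 to 1.42) and H2-K1 1.26-fold (1.22 to 1.29) lower. The Spearman correlation with exonic length was 0.70 across the 27 genes and 0.39 across all genes. With the trend removed the log2 ratios of the 27 lay between -0.67 (Erap1) and 0.66 (Eif2ak2). Stat2 stood at 0.56 and Tap1 at 0.46, but Parp14 and Ifih1 each at only 0.25. B2m stood at -0.19, Rtp4 at -0.28 and Ifit2 at -0.33, and Bst2 turned from -0.19 to 0.23.

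Over the 3 libraries, 12 of the 27 genes were lowest in Mist1- (44.4%), beside 45.8% of all genes, 9 were lowest in Gpx4 KO-Mist1+ (33.3%), beside 35.4%, and 6 in Mist1+ (22.2%), beside 18.8%. The highest level was in Gpx4 KO-Mist1+ for 10 genes (37%, beside 30.6% of all genes), in Mist1+ for 8 (29.6%, beside 36.9%) and in Mist1- for 9 (33.3%, beside 32.5%). These shares lie near those of all genes.

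Interferon ligands were all but absent. Of 13 ligand genes 11 had no count in any library, among them Ifnb1, Ifng, Ifnl2 and Ifnl3, while Ifnk had 3 counts in Gpx4 KO-Mist1+, 3 in Mist1+ and 0 in Mist1-, and Ifnz had 1, 0 and 0. Of 12 interferon-induced GTPase genes only Irgm1 passed an FPKM of 1, at 2.12, 3.06 and 2.57. Class II presentation was as scarce, with 1 of 9 genes past that level, the invariant chain gene Cd74 at 0.58, 1.25 and 1.04 FPKM, and with its transactivator Ciita at 2, 7 and 1 counts. The receptor for lambda interferons was present: Ifnlr1, its specific chain, had 7.07 FPKM in Gpx4 KO-Mist1+, 4.24 in Mist1+ and 3.22 in Mist1-, 1.67-fold higher (1.44 to 1.94) in the labelled knockout than in Mist1+.

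Among 50 further interferon-induced genes, 30 passed the filter. In Gpx4 KO-Mist1+ against Mist1+, 1 was at least 2-fold higher, beside 4.81% of all genes, and 3 lower, beside 2.74%, on log2 of FPKM plus 1. The higher one was Ifitm2, a membrane protein gene that blocks virus entry, at 182 against 76.9 FPKM (2.37-fold, 2.18 to 2.57), with Ifitm3 just short at 162 against 84.8 (1.91-fold, 1.76 to 2.07). Another gene lies on the same strand over 40.9% of the exonic bases of Ifitm2, so its count is uncertain. The lower ones were Slfn9 at 2.86-fold (2.70 to 3.03), Nmi at 2.74-fold (2.1 to 3.60) and Ifit1bl1 at 6.47-fold (3.58 to 12.7). In Mist1+ against Mist1-, 3 were higher, beside 7.88% of all genes, and 1 lower, beside 5.73%. Slfn9 (2.73-fold, 2.57 to 2.89), Rnf213 (3.41-fold, 3.07 to 3.79) and Helz2 (3.03-fold, 2.58 to 3.57) were higher and Oasl1 was lower (3.83-fold, 2.69 to 5.56); with the length trend removed, Rnf213 was at a log2 ratio of 0.53 and Helz2 at 0.38, while Slfn9 stayed at 1.02 and Oasl1 at -1.11.

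Of 21 other class I genes and loading factors, 19 passed the filter. The non-classical heavy chain genes H2-Q10 and H2-T23 were at least 2-fold higher in Gpx4 KO-Mist1+ than in Mist1+, at 12.1 against 2.61 FPKM (4.61-fold, 3.93 to 5.43) and 31.4 against 14.2 FPKM (2.22-fold, 2.02 to 2.43), beside 4.81% of all genes. H2-Q10 shares 8.01% and H2-T23 3.15% of its 100-base stretches with other genes. Psmb10, a catalytic subunit of the immunoproteasome, was lower there at 6.15 against 15.5 FPKM (2.52-fold, 2.11 to 3.03), beside 2.74% of all genes. Cd1d1, a class I-like gene that presents lipids, had 5 against 51 counts (10.3-fold lower, 4.15 to 33.2), with a log2 ratio of -0.99 just short of the limit. Cd1d1 passed the filter only through Mist1+, the library where it was higher. The heavy chain gene H2-Q4 was 1.47-fold lower (1.29 to 1.66). Mr1 and H2-Q7 went the other way, at 130 against 26 and 70 against 21 counts, and passed the filter only through Gpx4 KO-Mist1+. The median log2 ratio of the 19 genes was -0.21, with 9 above 0 and 10 below. H2-Q10 was also 2.56-fold lower (2.15 to 3.06) and H2-T23 1.73-fold lower (1.57 to 1.91) in Mist1+ than in Mist1-, so Mist1+ had the lowest level of both. H2-T24 had 64 counts in Gpx4 KO-Mist1+, 40 in Mist1+ and 0 in Mist1-.

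Signalling and sensing genes outside the set passed the filter in 14 of 15 and 13 of 16 cases. In Gpx4 KO-Mist1+ against Mist1+ none of them was at least 2-fold apart on log2 of FPKM plus 1, beside 7.55% of all genes. Some were by counts, beside 6.55% of all genes lower and 8.09% higher. The furthest by log2 ratio were Rnaseh2b and Sting1. Rnaseh2b, a subunit of the enzyme that removes ribonucleotides from DNA, was 2.26-fold lower by counts (1.94 to 2.62). Sting1, the adaptor of cytosolic DNA sensing, was 3.43-fold higher (1.97 to 6.27) on 59 against 17 counts. Sting1 passed the filter only through Gpx4 KO-Mist1+, the library where it was higher. Cgas, the sensor ahead of Sting1, was 1.83-fold lower (1.55 to 2.16), and the feedback inhibitor gene Socs3 was 1.61-fold higher (1.45 to 1.77). In Mist1+ against Mist1-, only Trim56, a ubiquitin ligase gene, was at least 2-fold higher on log2 of FPKM plus 1, beside 7.88% of all genes. It was 2.65-fold higher by counts (2.35 to 2.99), with a log2 ratio of 1.14, and of 0.55 once the length trend was removed. The kinase genes Jak1 and Jak2 were 1.86-fold (1.75 to 1.98) and 1.84-fold (1.70 to 2.01) higher by counts. Their log2 ratios were 0.38 and 0.56 once that trend was removed.

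**Figure D4:**
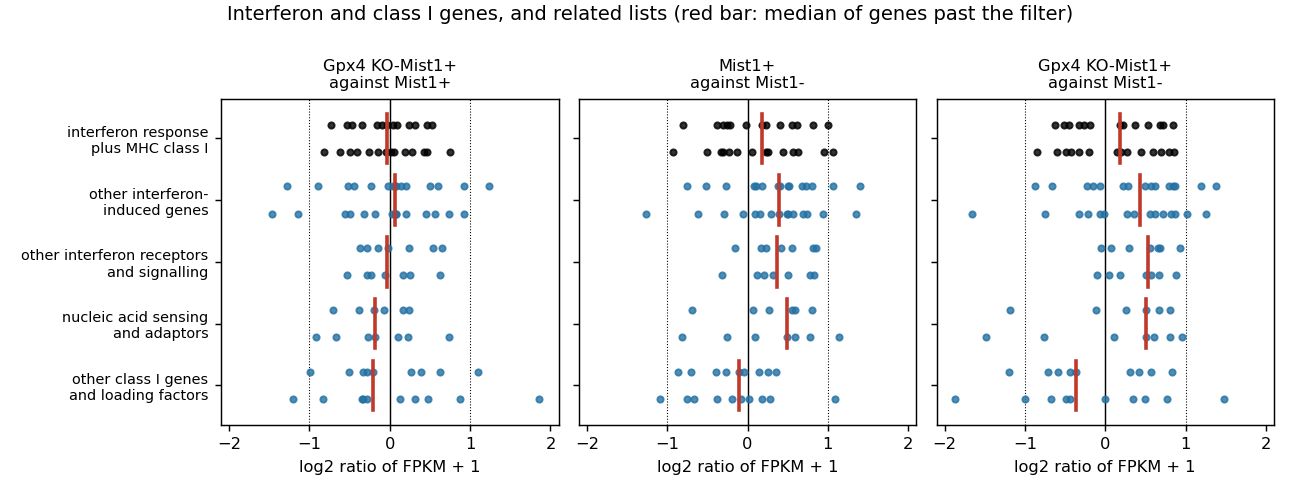
Log2 ratio of FPKM plus 1 for the 27 interferon and class I genes (black) and for 4 related lists (blue), each point a gene that passed the filter, in 3 comparisons of single libraries; red bars are list medians and dotted lines mark 2-fold. Of the black points only Adar in the middle panel, at 1.06, passes a dotted line, and the points furthest out belong to the other interferon-induced and other class I lists.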

How the data were processed

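Per the submitters' processing notes, the tools were cutadapt 1.9.1, HISAT2 2.2.1 and HTSeq 0.6.1 and the build GRCm38.p5. The deposited table gives a whole-number count and an FPKM per gene and library, per the file headers. The deposited FPKM equalled count over exonic length and column total within 2.77% for genes with at least 50 counts. The table's gene coordinates equalled those of GENCODE M21 (GRCm38) for 2.83% of 52073 shared identifiers, though span lengths were the same for 96.8%, so gene coordinates were taken from M21.

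The 13351 genes that reached an FPKM of 1 in any library were kept. Log2 ratios add a pseudocount of 1 to FPKM. Folds are ratios of counts scaled to column totals, with exact 95% intervals from the binomial split of both counts; levels have exact Poisson intervals. With a count of 0 only the finite limit of the interval is given. The length trend was removed by lowess (fraction 0.3). All genes of the set past the filter were to be named, and up to 4 per related list by size of log2 ratio. Ifitm3, Irgm1, H2-Q4, H2-Q7, Mr1 and genes named for a count of 0 or a role were added after their values were seen. The genes, lists and tests were chosen with earlier results of these data known. Calls and intervals were tested only on simulated counts with Poisson error and large changes in well-expressed genes. That setting shares the assumption of the intervals, so it cannot show how they do for low genes or variation between cultures. Python 3.11.15, numpy 2.4.6, pandas 2.3.3, scipy 1.17.1 and statsmodels 0.14.6 were used. The alternatives tried were a pseudocount of 0.1 or 5, a filter at an FPKM of 5 or none, TPM, median ratio scaling, counts scaled without length (CPM), the length trend removed, and limits of 1.5-fold and 4-fold.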

Additional observations from a re-analysis of the deposited data

How the results depend on the processing

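With 1 library per group no library could be left out. No paired analysis was possible because each group has a single library. The number of interferon and class I genes at least 2-fold apart depended on the pseudocount and scaling. For Gpx4 KO-Mist1+ against Mist1+ it was 0, but 1 with a pseudocount of 0.1 and on CPM (Ifit2), 2 on TPM (Ifit2 and Isg15) and 4 at 1.5-fold. For Mist1+ against Mist1- it was 1, but 4 with a pseudocount of 0.1 and on CPM, 7 on TPM, 2 after median ratio scaling (Bst2 and Ifi35, lower), 8 at 1.5-fold, and 0 with a pseudocount of 5, at 4-fold and with the length trend removed. For Gpx4 KO-Mist1+ against Mist1- it was 0, but 4 with a pseudocount of 0.1, 6 on TPM, 3 on CPM and 10 at 1.5-fold. The median log2 ratio of the genes ran from -0.06 (TPM) to 0.08 (length trend removed) for Gpx4 KO-Mist1+ against Mist1+, from -0.12 (FPKM of 5 or more) to 0.48 (TPM) for Mist1+ against Mist1-, and from -0.19 (FPKM of 5 or more) to 0.49 (TPM) for Gpx4 KO-Mist1+ against Mist1-, so its sign was not fixed. TPM also shifts the median of all genes, to 0.45 for Mist1+ against Mist1- (0.15 as deposited), and to 0.38 for the labelled knockout against Mist1- (0.09 as deposited). Single log2 ratios changed sign under some setting for 3 of 27 genes in Gpx4 KO-Mist1+ against Mist1+ (Irf9, Ifngr2 and Ifi35), 11 in Mist1+ against Mist1- and 4 in Gpx4 KO-Mist1+ against Mist1-.

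Counts over all genes, given as higher and lower, moved more. For Gpx4 KO-Mist1+ against Mist1+ they were 642 and 366, and 1028 and 773 with a pseudocount of 0.1, 226 and 70 with 5, 374 and 201 for an FPKM of at least 5, 1348 and 1100 on TPM, 1414 and 1514 at 1.5-fold and 120 and 31 at 4-fold. For Mist1+ against Mist1- they were 1052 and 765, and 129 and 396 with a pseudocount of 5, 641 and 1226 after median ratio scaling, 3165 and 2005 at 1.5-fold and 81 and 38 at 4-fold; the higher count alone moved to 1986 with a pseudocount of 0.1, 649 for an FPKM of at least 5, 3795 on TPM, 1594 on CPM and 584 with the length trend removed. For Gpx4 KO-Mist1+ against Mist1- they were 1553 and 1143, and 349 and 564 with a pseudocount of 5, 3421 and 2689 at 1.5-fold and 165 and 76 at 4-fold; the higher count alone moved to 2477 with a pseudocount of 0.1, 963 for an FPKM of at least 5 and 4076 on TPM. The cause of these shifts was not tested beyond what each setting changes by construction. Of all calls in Mist1+ against Mist1-, 57.9% were higher, but 24.6% with a pseudocount of 5, 84.9% on TPM, 34.3% after median ratio scaling and 70.1% on CPM; for Gpx4 KO-Mist1+ against Mist1- the share was 57.6%, but 38.2% with a pseudocount of 5, 80.3% on TPM and 45.8% after median ratio scaling. Depth limits the low genes, as for Rsad2, whose 13 against 3 counts leave a fold between 1.18 and 23.4.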
